A study of Mus musculus with 4 samples.

Results

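The genes described here encode the protein kinases of the mitogen-activated protein (MAP) kinase cascade. A gene was a member when its symbol read Mapk, Map2k, Map3k or Map4k followed by a number and it was listed in the files of all samples. This gave 42 of the 16566 genes: 13 MAP kinases (MAPK), 7 MAP kinase kinases (MAP2K), 17 kinases of the next tier up (MAP3K) and 5 of the tier above that (MAP4K). Map3k21, a RefSeq symbol that the rule would also take, was not found under that symbol and so was not analysed here.

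RNA was sequenced from bone marrow neutrophils of C57BL/6 mice, isolated to a stated purity above 95% and cultured for 1 h with 20% fetal bovine serum. Of the 4 libraries, 2 came from cells given vehicle (80% glucose and 20% PEG300) and 2 from cells given ruxolitinib, which blocks JAK1 and JAK2, the kinases bound to cytokine receptors, each for 1 h. The ruxolitinib dose is uncertain, because the treatment label reads 0.1 µM and the protocol reads 1 µM, and the labels name no animal, sex or age. Nothing says that the 2 libraries of a group came from separate mice or cultures, so the p-values below measure the spread between these libraries, which may be technical.

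In a MAP kinase cascade each tier phosphorylates the next: a MAP4K can act on a MAP3K, a MAP3K on a MAP2K, and a MAP2K on both residues of a short threonine-x-tyrosine motif in the activation lip of a MAPK. The conventional MAPKs fall into the ERK, p38 and JNK branches, and in neutrophils the ERK and p38 branches are known for carrying signals from chemoattractant, cytokine and Toll-like receptors to migration, oxidant release and cytokine production. Cytokine receptors that use JAK kinases can also feed the ERK branch through Ras.

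The activation lips are shown because the residue between the threonine and the tyrosine differs between the p38 genes, the JNK genes and Mapk7. The lip of Mapk3, which encodes ERK1, is not shown, so ERK1 is not set beside them. The coding stretches below run from the codons of the DFG motif to those that close the lip (APE, or SPR in Mapk6), read from GENCODE M21 transcripts on GRCm38, 5′ to 3′ on the coding strand, and the capitals mark the 3 codons of the dual phosphorylation motif or its counterpart. The p38 genes Mapk14, Mapk13, Mapk11 and Mapk12 code for threonine-glycine-tyrosine there, the JNK genes Mapk8 and Mapk9 for threonine-proline-tyrosine, Mapk7 (ERK5) for threonine-glutamate-tyrosine, and the atypical Mapk6 (ERK3) for serine-glutamate-glycine, with no tyrosine.
Mapk14: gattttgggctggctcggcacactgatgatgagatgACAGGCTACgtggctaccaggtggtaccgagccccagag
Mapk13: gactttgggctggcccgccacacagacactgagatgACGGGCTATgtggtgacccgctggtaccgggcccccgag
Mapk11: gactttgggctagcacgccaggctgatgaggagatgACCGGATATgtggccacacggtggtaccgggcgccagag
Mapk12: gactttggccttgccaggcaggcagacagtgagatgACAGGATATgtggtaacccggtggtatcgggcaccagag
Mapk8: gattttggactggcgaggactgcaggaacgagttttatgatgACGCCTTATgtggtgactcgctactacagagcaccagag
Mapk9: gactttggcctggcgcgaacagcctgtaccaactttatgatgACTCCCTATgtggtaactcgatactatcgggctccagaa
Mapk7: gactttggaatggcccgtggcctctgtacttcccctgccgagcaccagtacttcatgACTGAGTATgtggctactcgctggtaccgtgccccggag
Mapk6: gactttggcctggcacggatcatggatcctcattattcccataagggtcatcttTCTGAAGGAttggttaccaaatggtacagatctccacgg
In all 4 p38 genes the stretch lay within exon 7 and was 75 bases long, at chr17:28728363-28728437 for Mapk14 (plus strand), chr17:28776308-28776382 for Mapk13 (plus strand), chr15:89145836-89145910 for Mapk11 (minus strand) and chr15:89134646-89134720 for Mapk12 (minus strand). Across these 75 bases Mapk13 shared 60 with Mapk14 and 61 with Mapk12, and Mapk14 shared 56 with Mapk12. The JNK stretches of Mapk8 (chr14:33392973-33393053, minus strand) and Mapk9 (chr11:49872788-49872868, plus strand) lay in exon 6 and shared 61 of 81 bases. The stretch of Mapk7 is at chr11:61491392-61491487 (minus strand, exon 4), and that of Mapk6 runs over the junction of exons 2 and 3 at chr9:75395607-75397623 (minus strand).

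The libraries held between 14235511 and 15419579 estimated counts. All 12 neutrophil markers were listed and summed to 249296 to 272682 TPM (a level scaled to transcript length and library) per library. S100a9 and S100a8 led this sum, with means of 83415 and 61473 TPM. The sum is high but does not measure the purity of the cells. Markers of other marrow cells were also present, and none of the 40 was at 0 in every library: the 8 erythroid markers summed to 14244 to 14895 TPM in 3 libraries and to 28010 TPM in ruxolitinib replicate 2, and the 8 eosinophil or basophil markers to 1445 to 2034 TPM in the same 3 libraries and to 493 TPM in ruxolitinib replicate 2. The 8 B lineage markers summed to 1206 to 1388 TPM in those 3 libraries and to 1780 TPM in ruxolitinib replicate 2. The 8 monocyte or macrophage markers ranged from 1925 to 2095 TPM and the 8 T or natural killer cell markers from 31.8 to 39.96 TPM. Ruxolitinib replicate 2 also stood apart in scale: for the same count scaled to library size (CPM), its deposited TPM was 0.800 times that of vehicle replicate 1 at the median gene, against 0.997 times in the other libraries. Levels of different genes are therefore compared below in TPM, which is per length, and libraries are compared in CPM. The TPM values printed by library, and their SD, include this difference in scale and are not a comparison of treatments.

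The neutrophil libraries held transcripts of every tier. Markers of other cells also passed 1 TPM in this bulk RNA, such as Prg2 (mean 1166 TPM) and Cd3d (mean 10.1 TPM). A level at or above 1 TPM therefore does not place a transcript in the neutrophils, least of all for members of low level. Of the 42 members, 36 were at or above 1 TPM in every library, where 60.8% of all genes were, and 24 were at or above 10 TPM in every library, where 34.3% of all genes were. All 7 MAP2K and all 5 MAP4K genes were at or above 1 TPM in every library, as were 11 of the 13 MAPK and 13 of the 17 MAP3K genes. The 5 members below 1 TPM in every library were Mapk10, Mapk15, Map3k6, Map3k12 and Map3k13, and Map3k19 lay on either side of that level, between 0.78 and 2.18 TPM. Summed over a tier, the MAPK genes gave 845 ± 56.6 TPM (SD, n = 4), the MAP3K genes 467 ± 53.3 TPM, the MAP2K genes 361 ± 48.6 TPM and the MAP4K genes 315 ± 55.5 TPM.

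**Figure D1:**
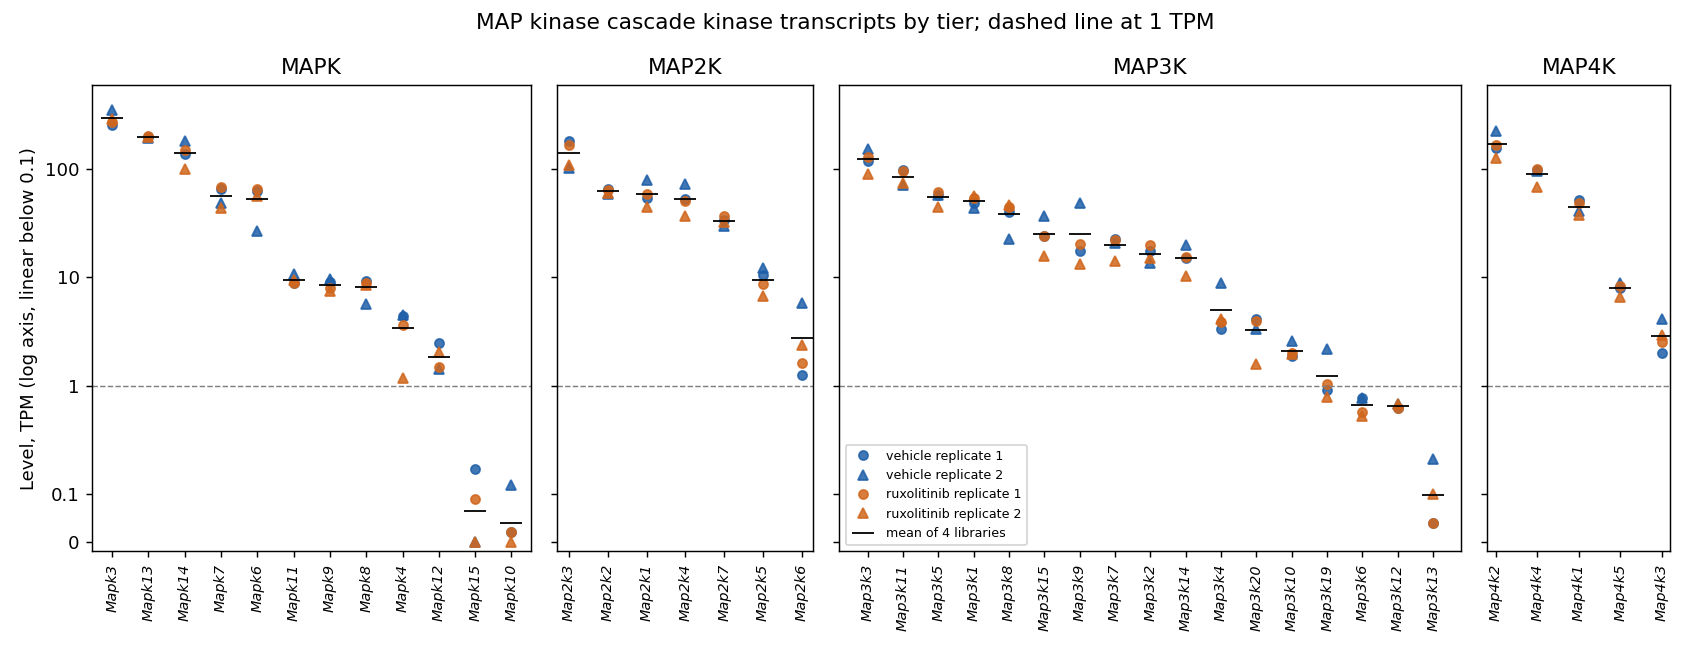
Deposited TPM (log axis, linear below 0.1) of the members in the 4 libraries, by tier and in order of mean level, with a bar at the mean and a dashed line at 1 TPM. Mapk3, Map2k3, Map3k3 and Map4k2 had the highest mean level in their tiers, and Mapk10, Mapk15 and Map3k13 had the lowest means, all below 0.1 TPM.

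Within the MAPK tier ERK1 and the p38 branch held most of the transcripts and the JNK branch few. Mapk3, which encodes ERK1, had the highest level of all members, at 258 and 355 TPM with vehicle and 275 and 288 TPM with ruxolitinib. Mapk3 alone held 34.8% ± 4.24 of the summed TPM of the tier (SD, n = 4), and the 4 p38 genes held 41.5% ± 1.09.

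Among the p38 genes, Mapk13, which encodes p38 delta, and Mapk14, which encodes p38 alpha, made up nearly all of the transcripts. Mapk13 was at 200 and 192 TPM with vehicle and 203 and 197 TPM with ruxolitinib. Mapk14 was at 137 and 180 TPM with vehicle and 152 and 99.95 TPM with ruxolitinib. Mapk13 was above Mapk14 in each of the 4 libraries, by 1.07 to 1.97 times, and held 56.7% ± 5.71 of the p38 sum against 40.05% ± 5.98 for Mapk14 (SD, n = 4). Mapk11, which encodes p38 beta, was at 8.80 to 10.6 TPM, and Mapk12, which encodes p38 gamma, at 1.42 to 2.46 TPM.

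The p38 genes lie in 2 neighbouring pairs, of which one held the abundant and the other the scarce members. On chromosome 17 of GRCm38.p6, Mapk14 (28691342 to 28748405) and Mapk13 (28769286 to 28778704) are 20880 bases apart, and these were the abundant members. On chromosome 15, Mapk12 (89130584 to 89141577) and Mapk11 (89142482 to 89149606) are 904 bases apart, and these were the scarce ones, with Mapk11 above Mapk12 in every library. Their promoters from RefSeq (GRCm38.p6; 250 bases before to 50 after the start, 5′ to 3′ on the gene's strand) are printed to set the pairs side by side, with CG dinucleotides in capitals.
Mapk14: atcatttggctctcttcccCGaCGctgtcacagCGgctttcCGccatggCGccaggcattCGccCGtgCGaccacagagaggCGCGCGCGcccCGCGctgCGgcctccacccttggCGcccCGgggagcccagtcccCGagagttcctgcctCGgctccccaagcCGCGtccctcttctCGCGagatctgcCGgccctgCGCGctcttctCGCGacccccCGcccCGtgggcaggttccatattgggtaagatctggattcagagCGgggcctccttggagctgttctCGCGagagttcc
Mapk13: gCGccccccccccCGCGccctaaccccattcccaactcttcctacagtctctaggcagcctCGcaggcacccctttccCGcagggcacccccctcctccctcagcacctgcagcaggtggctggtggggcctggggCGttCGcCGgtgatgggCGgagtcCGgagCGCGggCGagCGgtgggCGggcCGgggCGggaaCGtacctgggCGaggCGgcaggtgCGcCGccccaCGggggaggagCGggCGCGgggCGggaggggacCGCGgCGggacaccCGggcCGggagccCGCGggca
Mapk11: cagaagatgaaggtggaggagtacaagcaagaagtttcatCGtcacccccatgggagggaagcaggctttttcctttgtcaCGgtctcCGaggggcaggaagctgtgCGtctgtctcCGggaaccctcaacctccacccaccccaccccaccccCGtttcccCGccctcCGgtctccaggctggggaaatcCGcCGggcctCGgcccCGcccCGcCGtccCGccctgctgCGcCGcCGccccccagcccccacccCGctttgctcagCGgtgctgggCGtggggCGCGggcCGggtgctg
Mapk12: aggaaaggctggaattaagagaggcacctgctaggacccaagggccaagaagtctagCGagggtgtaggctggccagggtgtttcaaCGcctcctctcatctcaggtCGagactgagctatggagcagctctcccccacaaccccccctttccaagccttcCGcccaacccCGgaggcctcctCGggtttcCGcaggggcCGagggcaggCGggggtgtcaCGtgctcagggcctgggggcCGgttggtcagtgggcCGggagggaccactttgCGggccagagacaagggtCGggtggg
These windows are chr17:28691092-28691391 (plus strand, the one of 2 listed starts for Mapk14 that matches the gene's own start), chr17:28769067-28769366 (plus strand), chr15:89149557-89149856 (minus strand) and chr15:89140654-89140953 (minus strand). The listed starts of Mapk12 and Mapk13 lie inside the spans given above for these genes, not at their outer ends. The CG dinucleotide occurred 33 times in the Mapk14 window, 34 times in that of Mapk13, 24 times in that of Mapk11 and 14 times in that of Mapk12. None of the 4 windows held, on either strand, CCGGAAGT (an ETS site), GAGGAAGT (a PU.1 site), TGACGTCA (a cyclic AMP response element), TGANTCA (an AP-1 site) or TTGCNNAA (a C/EBP site), which were found in 3.89%, 3.20%, 1.79%, 7.81% and 10.8% of all 32851 promoters of this length.

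A promoter was listed for 33 of the 42 members, and not for Map3k2, Map3k8, Map3k15, Map3k19, Map4k4, Mapk3, Mapk4 and Mapk15, among others. Taking the listed start with the most CG dinucleotides, the 18 members at or above 10 TPM in every library had a median of 31 (range 15 to 55), where all 4582 such genes had a median of 24. The 4 members below 1 TPM in every library had a median of 10 (range 0 to 23), where all 3908 such genes had a median of 11. Across the 33 members the Spearman correlation of this number with mean TPM was 0.39, and across 12792 genes it was 0.32. These are correlations across genes of the same 4 libraries, given as a description.

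The JNK genes were low. Mapk8, which encodes JNK1, was at 9.24 and 5.65 TPM with vehicle and 8.91 and 8.56 TPM with ruxolitinib, and Mapk9, which encodes JNK2, at 9.01 and 9.74 TPM with vehicle and 8.05 and 7.44 TPM with ruxolitinib, so their ranges overlapped. Mapk10, which encodes the JNK3 known from neurons, had between 0 and 6 counts per library. The branch as a whole held 1.98% ± 0.199 of the MAPK sum (SD, n = 4). Among the remaining MAPKs, Mapk7, which encodes ERK5, was at 43.5 to 67.8 TPM, and Mapk6, which encodes the atypical kinase ERK3, at 26.7 to 66.0 TPM. Mapk4, which encodes its atypical relative ERK4, was at 1.18 to 4.51 TPM, and Mapk15 (ERK8) had between 0 and 2 counts per library.

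**Figure D2:**
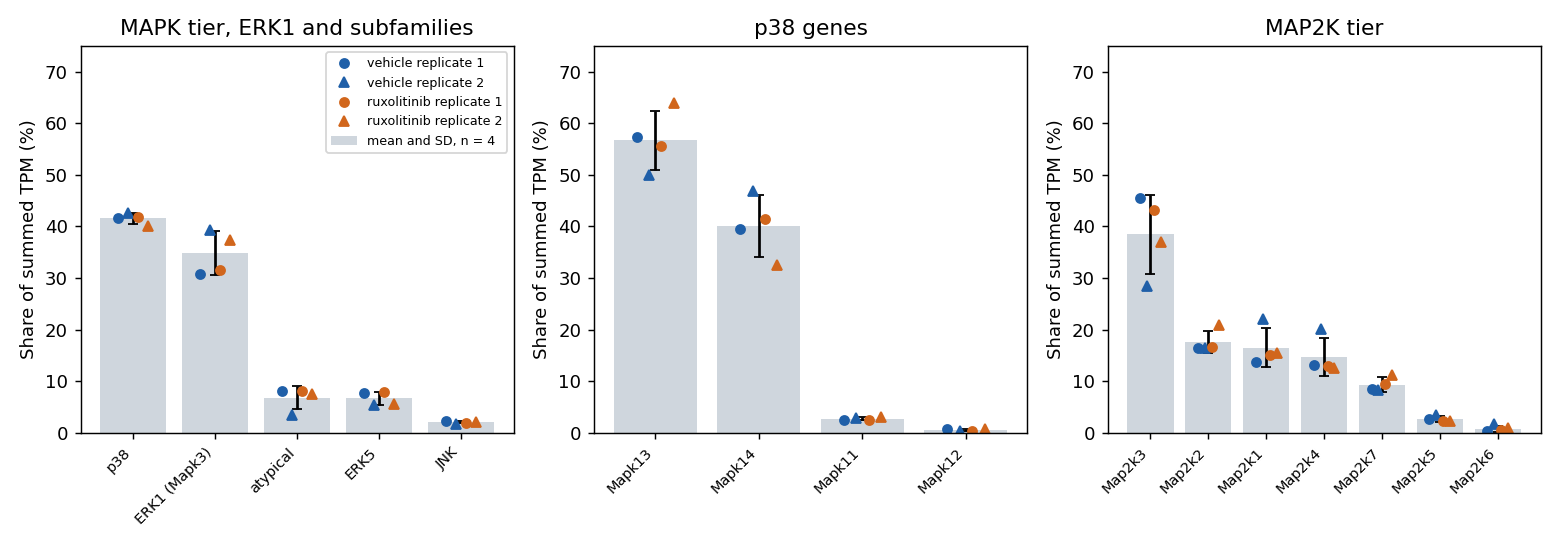
Share of the summed TPM (percent) held by ERK1 and by other subfamilies of the MAPK tier, by each p38 gene and by each MAP2K gene, with bars at the mean, error bars of 1 SD (n = 4) and a point per library. ERK1 and the p38 genes held 34.8% and 41.5% of the MAPK sum, JNK 1.98%, and Map2k3 led the MAP2K tier in every library.

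The MAP2K tier, whose members mostly serve a single branch, was led by Map2k3. This gene encodes MKK3, an activator of p38, and was at 183 and 102 TPM with vehicle and 168 and 108 TPM with ruxolitinib. Map2k6, which encodes the other dedicated p38 activator MKK6, was at 1.26 and 5.81 TPM with vehicle and 1.63 and 2.35 TPM with ruxolitinib, so that Map2k3 was above it by 17.6 to 145 times. The ERK activators Map2k1 (MEK1) and Map2k2 (MEK2) were close to each other, at 59.3 ± 14.5 and 62.7 ± 3.27 TPM (SD, n = 4), and their order differed between libraries. Map2k4 (MKK4, which acts on JNK and can act on p38) and Map2k7 (MKK7, which acts on JNK) were at 53.1 ± 14.8 and 33.2 ± 2.99 TPM, each above the JNK genes themselves, and Map2k5 (MEK5), which activates ERK5, was at 9.50 ± 2.36 TPM.

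In the MAP3K tier the levels fell in a graded order. Map3k3, which encodes MEKK3, was at 119 and 153 TPM with vehicle and 130 and 90.8 TPM with ruxolitinib, 6.03 to 11.3 times the level of its close relative Map3k2 (MEKK2). Map3k11, which encodes the mixed-lineage kinase MLK3, was at 98.6 and 71.1 TPM with vehicle and 96.0 and 73.9 TPM with ruxolitinib. It was below Map3k3 in every library, though the ranges of these genes over all libraries overlapped. Map3k5 (ASK1, a kinase of the oxidant response) followed at 55.2 ± 7.43 TPM, Map3k1 (MEKK1) at 50.5 ± 5.49 TPM and Map3k8 (TPL2, which links Toll-like receptors to MEK1) at 38.6 ± 11.02 TPM (SD, n = 4), with overlapping ranges. Map3k15 came next at 25.2 ± 8.58 TPM, and Map3k9 at 24.95 ± 15.9 TPM. Map3k7 (TAK1, which serves interleukin 1 and Toll-like receptors) was at 19.9 ± 3.88 TPM, and Map3k14 (NIK, a kinase of the noncanonical NF-kB pathway) at 15.2 ± 3.93 TPM. Map3k4, at 3.34 to 8.78 TPM, lay below the range of Map3k14. The estimated counts of Map3k3, Map3k12 and Map3k15 were not all whole, as happens where reads are divided between genes, so these 3 levels carry that uncertainty.

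The MAP4K tier held 3 genes well above the others. Map4k2 was at 156 and 227 TPM with vehicle and 168 and 126 TPM with ruxolitinib and made up 53.3% ± 4.84 of its tier (SD, n = 4). Map4k4 (HGK) was at 68.5 to 99.9 TPM, and Map4k1 (HPK1, a kinase known from blood cells) at 37.95 to 51.7 TPM. Map4k5 was at 7.91 ± 0.945 TPM and Map4k3 (GLK) at 2.90 ± 0.921 TPM. The ranges of neighbouring members in this tier did not overlap.

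The comparison of ruxolitinib with vehicle asks whether the transcripts of these kinases move within 1 h of JAK inhibition. No member passed the test. Of the 42 members, 39 had enough counts to be tested, and edgeR's quasi-likelihood test called 0 of them at an adjusted p below 0.05, where it called 0% of the 11611 genes tested, with adjusted p-values of 0.975 to 0.999 over the members. DESeq2 and limma-voom likewise called 0 members. At an unadjusted p below 0.05 there was 1 member by each of the 3 methods, where edgeR gave 1.94% of all genes tested, 0.56% higher and 1.38% lower with ruxolitinib. The median log2 fold change was -0.063 over the members and -0.0050 over all genes tested, with 15 members above 0 and 24 below. Mapk10, Mapk15 and Map3k13 had too few counts for the test.

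**Figure D3:**
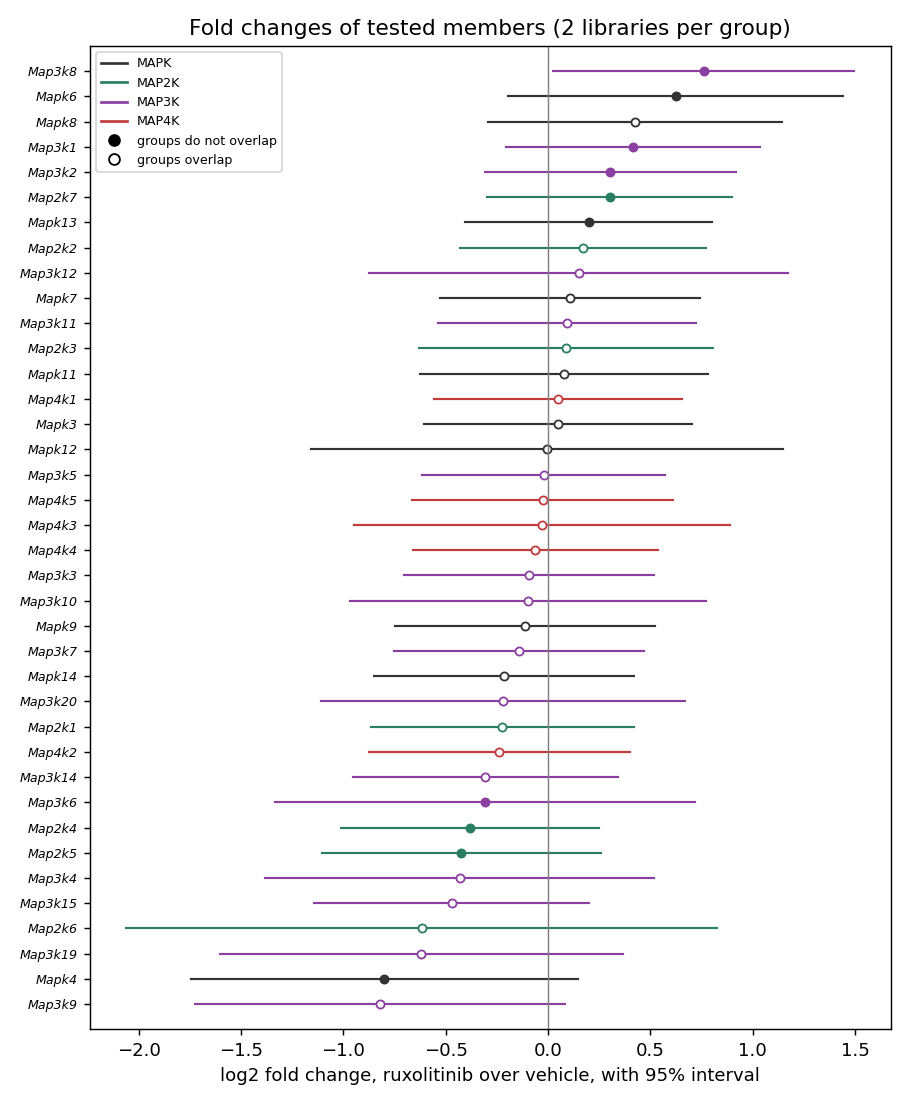
Log2 fold change of the tested members, ruxolitinib over vehicle, with its 95% interval from edgeR's quasi-likelihood fit; filled points mark members whose libraries of one group all lie above those of the other. Estimates run from -0.82 (Map3k9) to 0.76 (Map3k8), and the interval of every member except Map3k8 includes 0.

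The member with the smallest p was Map3k8. Its transcript was at 51.8 and 29.0 CPM in the vehicle libraries and 59.7 and 77.3 CPM in the ruxolitinib libraries. Both ruxolitinib libraries were above both vehicle libraries, with vehicle replicate 2 the lowest. The log2 fold change was 0.76 ± 0.33 (SE, n = 2 per group), with a 95% interval of 0.024 to 1.495 (edgeR unadjusted p = 0.0441, adjusted p = 0.975). Without vehicle replicate 2 it was 0.39. Mapk6 came next among the members higher with ruxolitinib, at 146 and 62.6 CPM in the vehicle libraries and 155 and 166 CPM in the ruxolitinib libraries. Only vehicle replicate 2 was far from the other libraries, and the log2 fold change of 0.62 ± 0.37 became 0.13 without it. Mapk8 (0.42 ± 0.33), Map3k1 (0.42 ± 0.28) and Map2k7 (0.30 ± 0.27) completed the 5 smallest p-values in this direction. The estimate of Mapk8 was 0.10 without vehicle replicate 2 and 0.83 without vehicle replicate 1, and that of Map3k1 was 0.22 without ruxolitinib replicate 2.

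Among members lower with ruxolitinib, Map3k9, which encodes the mixed-lineage kinase MLK1, had the smallest p. Its transcript was at 103 and 281 CPM in the vehicle libraries and 119 and 97.8 CPM in the ruxolitinib libraries. The groups overlapped, and vehicle replicate 2 alone was high. The log2 fold change was -0.82 ± 0.41 (SE, n = 2 per group; edgeR adjusted p = 0.975) and was 0.067 without vehicle replicate 2. Map3k19, a kinase of low level here, was likewise highest in vehicle replicate 2, at 3.30 and 7.11 CPM in the vehicle libraries and 3.39 and 3.38 CPM in the ruxolitinib libraries, with a log2 fold change of -0.62 ± 0.45 that was 0.027 without vehicle replicate 2. Map3k15 (ASK3) was at 58.7 and 88.7 CPM in the vehicle libraries and 59.0 and 47.4 CPM in the ruxolitinib libraries, with a log2 fold change of -0.47 ± 0.30 that was -0.15 without vehicle replicate 2 and -0.73 without vehicle replicate 1. Map2k5 was at 13.7 and 16.4 CPM with vehicle against 11.7 and 10.7 CPM, with a log2 fold change of -0.42 ± 0.31.

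In Mapk4 a ruxolitinib library stood apart. It was at 9.34 and 9.52 CPM in the vehicle libraries and 7.71 and 3.09 CPM in the ruxolitinib libraries. The groups did not overlap, and ruxolitinib replicate 2 was the lowest. The log2 fold change was -0.80 ± 0.43 (SE, n = 2 per group; edgeR adjusted p = 0.975), and it was -0.29 without ruxolitinib replicate 2 and -1.60 without ruxolitinib replicate 1. Map3k20 (ZAK, a kinase that senses stalled ribosomes) was also lowest there, at 12.6 and 8.48 CPM in the vehicle libraries and 12.2 and 5.88 CPM in the ruxolitinib libraries. It was named after its values were seen. Of the 8 eosinophil or basophil markers, 6 were also lowest in ruxolitinib replicate 2 in CPM. Prg2, the most abundant, was at 208 CPM there against 489 to 681 CPM elsewhere, and Epx at 41.2 against 188 to 297 CPM. Cpa3 was lowest there by little (2.57 against 2.66 CPM in ruxolitinib replicate 1), Fcer1a was not, and Mcpt8 was highest there (13.4 CPM against 8.28 to 11.7 CPM). Other cell types also differed in that library. The leading erythroid marker Hba-a1 was at 7351 CPM there against 2955 to 3107 CPM elsewhere. The leading B lineage marker Cd79a was at 720 against 357 to 401 CPM, though Pax5, named after its values were seen, was highest in vehicle replicate 2. The part of any of these cell types in the values of Mapk4 and Map3k20 was not tested. In bulk RNA, fewer cells of a type and less RNA per cell cannot be told apart.

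The most abundant members of each tier had estimates near 0, each with a 95% interval that includes 0. Mapk3 was at 243 and 335 CPM in the vehicle libraries and 259 and 339 CPM in the ruxolitinib libraries, giving a fold change of 0.049 on the log2 scale (-0.60 to 0.70). For Mapk13 the estimate was 0.20 (-0.40 to 0.80), for Map2k2 0.17 (-0.43 to 0.77) and for Map2k3 0.088 (-0.63 to 0.81). Map3k3 had an estimate of -0.094 (-0.70 to 0.52), Map3k11 one of 0.094 (-0.54 to 0.72), Map4k2 one of -0.24 (-0.87 to 0.40) and Map4k4 one of -0.063 (-0.66 to 0.54). The estimates of Map2k3, Map3k3, Map3k11 and Map4k2 changed sign without vehicle replicate 2, to -0.28, 0.084, -0.12 and 0.056. That of Map4k4 became 0.048 without ruxolitinib replicate 2, and that of Mapk3 became -0.15 without vehicle replicate 1 and -0.16 without ruxolitinib replicate 2. A p that misses the threshold does not show that these levels were the same in both groups.

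For 10 of the 39 tested members (25.6%) the libraries of one group all lay above those of the other, where 27.3% of all genes tested did so, 14.5% higher and 12.8% lower. In deposited TPM in place of CPM the count was 7, with 2 higher and 5 lower. In CPM, Mapk6, Mapk13, Map2k7, Map3k1, Map3k2 and Map3k8 were higher with ruxolitinib in this sense and Mapk4, Map2k4, Map2k5 and Map3k6 lower. The share is close to that of all genes and says nothing particular about these kinases. For a single gene in 2 libraries a group, the smallest p of an exact permutation test (two-sided) is 0.333.

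Differences among the members followed single libraries. Between the vehicle libraries, 27 of 39 members differed beyond counting noise (chi-square on the counts, Benjamini-Hochberg), as did 63.2% of all genes, and 6 of the 39 differed by 2-fold or more, as did 14.1% of all genes. Higher in vehicle replicate 2 by at least 2-fold were Map2k6 (log2 ratio 2.39), Map3k9 (1.45), Map3k4 (1.42), Map3k19 (1.11) and Map4k3 (1.09), and Mapk6 (-1.22) was lower. Between vehicle replicate 1 and ruxolitinib replicate 1, by contrast, 7 of 39 members differed beyond counting noise, against 5.45% of all genes. None differed by 2-fold, against 0.182% of all genes. The largest of those 7 log2 ratios was 0.21, for Map3k9. Between the ruxolitinib libraries 26 of 39 differed, against 45.5% of all genes. Mapk4 (-1.32) and Map3k20 (-1.06) were past 2-fold, against 2.85% of all genes. Ruxolitinib replicate 2 differed from vehicle replicate 1 in 26 of 39 members, against 46.2% of all genes, and by 2-fold in 3, against 3.45%. Vehicle replicate 2 differed from ruxolitinib replicate 1 in 29 of 39 members, against 61.7% of all genes, and by 2-fold in 6, against 13%. It differed from ruxolitinib replicate 2 in 30 of 40 members, against 67.4% of all genes, and by 2-fold in 5, against 17.6%. These tests compare libraries, not treatments. They detect smaller ratios at higher counts, and the part of level in the shares of members and of all genes was not tested.

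**Figure D4:**
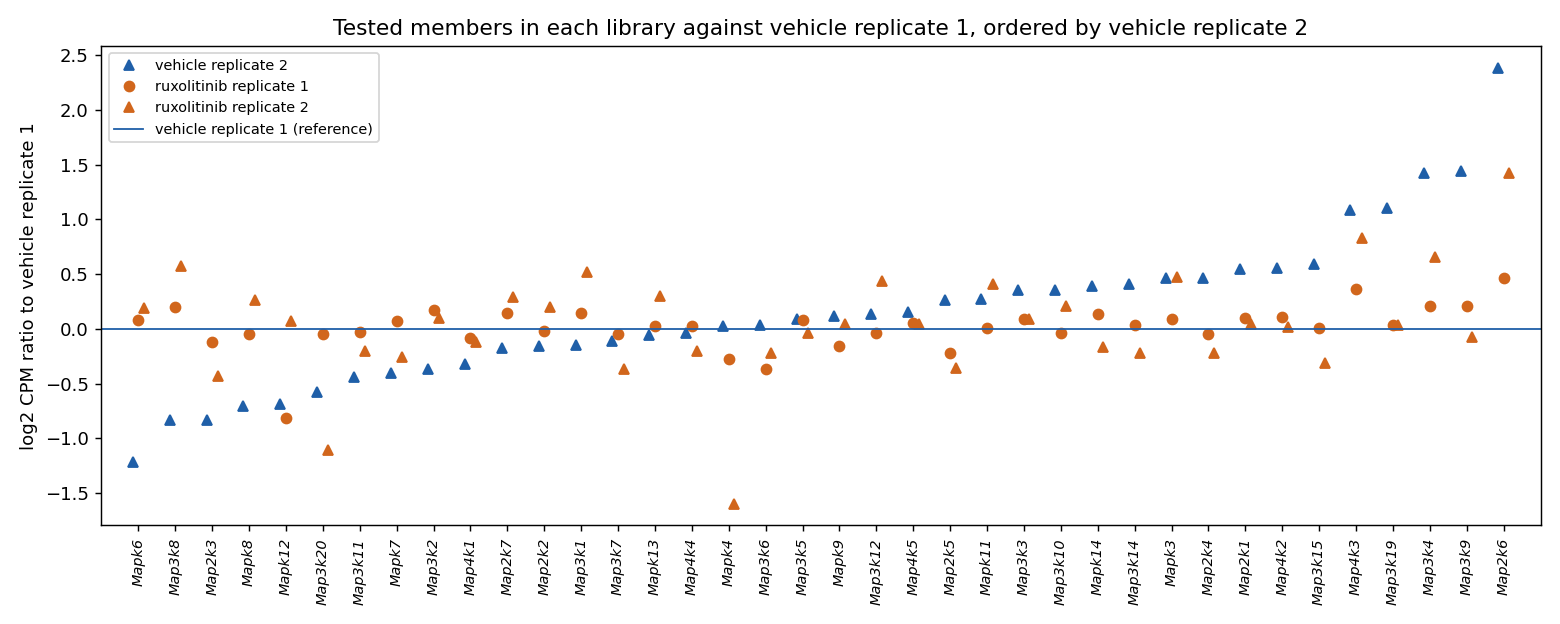
Log2 ratio of CPM to vehicle replicate 1 for the tested members in the other 3 libraries, ordered by the ratio in vehicle replicate 2. Vehicle replicate 2 runs from -1.22 (Mapk6) to 2.39 (Map2k6), while ruxolitinib replicate 1 stays close to the line for most members. It is farthest from the line for Mapk12 (-0.81, from at most 33 counts per library), then Map2k6 (0.46), Map4k3 (0.37) and Map3k6 (-0.37). Ruxolitinib replicate 2 is lowest for Mapk4 and Map3k20.

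Vehicle replicate 2 was the highest or lowest of the 4 libraries for 31 of 39 members (79.5%), where it was so for 77.1% of all genes tested. Its deviations ran across tiers and in both directions. In the p38 branch Map2k3 was lowest there, at 120 CPM against 158 to 213 CPM in the other libraries, while Map2k6 and Mapk14 were highest, at 7.30 against 1.40 to 3.75 CPM and at 343 against 233 to 287 CPM. In the ERK branch Map2k1 was highest there, at 103 CPM against 70.8 to 76.0 CPM. Over all libraries 22 of the 39 members (56.4%) stayed within a 1.5-fold range of CPM, where 41.7% of all genes tested did so, and 9 (23.1%) ranged over 2-fold or more, where 26.3% of all genes did so. Map3k5 (169 to 185 CPM) and Map4k5 (19.8 to 22.0 CPM) had narrow ranges.

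When vehicle replicate 1 was left out, so that the lone vehicle library was assumed to vary like the ruxolitinib libraries, 5 of 40 members passed edgeR's threshold, where 13.7% of all genes did, 7.13% higher and 6.62% lower. Mapk6 (log2 fold change 1.37, adjusted p = 0.00113) and Map3k8 (1.25, adjusted p = 0.00185) were higher with ruxolitinib, and Map3k9 (-1.36, adjusted p = 0.000426), Map2k6 (-1.36, adjusted p = 0.0182) and Map3k4 (-0.97, adjusted p = 0.0214) were lower, all by edgeR's quasi-likelihood test. That fit sets vehicle replicate 2 against both ruxolitinib libraries. In it 3 of the 8 monocyte or macrophage markers and 3 of the 8 eosinophil or basophil markers were also lower with ruxolitinib and 0 were higher. Of the 12 neutrophil markers 1, Cxcr2 (-1.03), was lower too. The part of other cell types in the 5 calls was not tested. No member passed when vehicle replicate 2 was left out (0.0169% of all genes did), nor when ruxolitinib replicate 1 (0.0833%) or ruxolitinib replicate 2 (0.0499%) was.

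Other genes of the pathway were likewise not called with all libraries in the fit. Among kinases of the upper tiers with other names, 0 of 9 tested were called in either direction. Braf, a Ras-bound kinase that activates MEK1 and MEK2, was at 38.5 ± 8.62 TPM (SD, n = 4), with a log2 fold change of -0.095 ± 0.29 (SE). Mos was listed at 0 in every library. Taok3, named after its values were seen, was at 55.5 and 147 CPM in the vehicle libraries and 56.7 and 52.6 CPM in the ruxolitinib libraries, with vehicle replicate 2 alone high as for Map3k9.

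Of the 10 tested kinases downstream of the MAPKs, 0 were called in either direction. Mapkapk2, which encodes MK2, the p38 substrate that controls cytokine transcripts, was at 710 and 222 CPM in the vehicle libraries and 714 and 781 CPM in the ruxolitinib libraries. Vehicle replicate 2 was again the library apart, and the log2 fold change was 0.68 ± 0.44 (SE, n = 2 per group; edgeR adjusted p = 0.975). Mknk2, which encodes a kinase of the translation factor eIF4E, was at 325 to 350 CPM in all libraries. Of the 14 tested scaffolds and activators, 0 were called, and their median log2 fold change was 0.072. Iqgap1, a scaffold of the ERK branch, led them at 402 ± 82.4 TPM, followed by Lamtor1, a late endosomal scaffold part, at 143 ± 16.9 TPM. Without vehicle replicate 1, where edgeR called 13.7% of all genes (7.13% higher and 6.62% lower), it called 0 of 9 upper-tier kinases higher and 1 lower, 3 of 14 scaffolds and activators higher and 1 lower, and 1 of 10 downstream kinases higher and 3 lower.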

How the data were processed

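RNA sequencing files of 4 mouse neutrophil libraries were used, 2 per treatment, grouped by the treatment label. The authors deposited for each gene an estimated count (per the file headers a read count, of which 91.0% to 91.1% were whole within 1e-06), a TPM and an FPKM value. The build GRCm38.p6 and the tools Bowtie2, RSEM and DESeq2 are named, with no version, per the submitters' processing notes. Which annotation was used is not given in the sources. All 42 member identifiers matched the RefSeq gene table of that build.

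Levels of genes were compared in the deposited TPM, and FPKM served as an alternative. Estimated counts were rounded. The software was edgeR 4.0.16, DESeq2 1.42.0 and limma 3.58.1 under R 4.3.3. filterByExpr (count of about 10, total of 15) kept 11611 genes, scaling was by TMM, and CPM values use the scaled sizes. The main test was edgeR's quasi-likelihood test of ruxolitinib against vehicle, with no covariate, and p-values were adjusted over all tested genes (Benjamini-Hochberg, 0.05). The standard error is the log2 fold change divided by the square root of F. The procedure was checked on simulated counts. Pairs of libraries were compared where their summed count reached 20.

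Members and lists were chosen with earlier results of these data known. Fold changes with errors are given for the 2 most abundant members of each tier and the 5 smallest p-values in each direction, or as said in the text. The counts cover all 42 members, of which 1 is not reported here by itself, nor are some other pathway genes. Alternatives were RLE scaling, DESeq2, limma-voom, filters of 1 and of 50 counts, the replicate number as a block, each library left out, other level thresholds and FPKM.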

Additional observations from a re-analysis of the deposited data

How the results depend on the processing

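The count of 0 called members held under RLE scaling, DESeq2, limma-voom, filters of 1 count and of 50 counts, and the replicate block. With each library left out in turn it ranged from 0 to 5, and the count over all genes from 2 to 1645 (0 with all libraries). The replicate numbers are not stated to mark a shared animal or day, and deviations of same-numbered libraries had a correlation of 0.042 over 11611 genes; with the number as a block 16 genes were called, 9 higher and 7 lower, none of them a member. The members' median log2 fold change of -0.063 ranged from -0.098 to 0.044 with libraries left out, the latter without vehicle replicate 2. The number of members not overlapping between groups moved by less than 1.5 times under every alternative run for it. So did the number at or above the level threshold. In deposited TPM, though, the members not overlapping were 2 higher and 5 lower against 6 and 4 in CPM. The share of each tier's leading member was not put to a test by its alternatives. A mean of 4 libraries cannot shift by 1 SD when 1 is left out, and FPKM is proportional to TPM within a library. Of the 18 members given with a fold change, 8 changed direction when a library was left out and none under another alternative. Their ranges over the 4 such fits were -0.28 to 0.57 for Map2k3, -0.25 to 0.084 for Map3k3, -0.12 to 0.34 for Map3k11, -0.48 to 0.056 for Map4k2, -0.17 to 0.048 for Map4k4, -0.16 to 0.29 for Mapk3, -1.36 to 0.067 for Map3k9 and -1.06 to 0.027 for Map3k19. Why these values moved was not tested. Low depth, at most 14 counts per library, limits Mapk10, Mapk15 and Map3k13.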
